A study of Mus musculus with 22 samples.

Results

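Mature microRNAs (miRNAs) of the miR-99, miR-100 and miR-125 families were followed in mouse round spermatids (RS): mmu-miR-99a-5p, mmu-miR-99b-5p, mmu-miR-100-5p, mmu-miR-125a-5p and mmu-miR-125b-5p, written below without the prefix. They were chosen by name, as the miRNAs that share genomic clusters with let-7, and they are 5 of the 1966 mature miRNA names in the count table. A mature miRNA guides an Argonaute protein to messenger RNAs, mostly by pairing of its seed, the bases near its 5′ end, and the targeted messages are less translated or decay sooner. The miR-99 and miR-100 family is known from other tissues for targeting the growth regulator mTOR, and miR-125 is a relative of the worm miRNA lin-4, which together with let-7 times development. In vertebrates a miR-99 or miR-100 gene, a let-7 gene and a miR-125 gene lie close together, and the combination occurs at several places in the genome.

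The mature sequences are shown because the families are defined by them. All 5 members were found in RefSeq (GRCm38.p6), and the capitals mark the seed, bases 2 to 8 counted from the 5′ end.
miR-99a-5p: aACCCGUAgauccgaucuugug
miR-100-5p: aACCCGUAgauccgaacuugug
miR-99b-5p: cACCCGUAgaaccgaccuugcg
miR-125a-5p: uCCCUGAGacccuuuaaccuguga
miR-125b-5p: uCCCUGAGacccuaacuuguga
The first 3 share one seed and the last 2 share another. miR-99a-5p and miR-100-5p are identical except for U16A (the miR-99a-5p base, the position from the 5′ end, then the miR-100-5p base), which lies outside the seed. miR-99b-5p differs from miR-99a-5p at 4 positions, written from miR-99a-5p as A1C, U11A, U16C and U21C. miR-125a-5p and miR-125b-5p are identical over their first 13 bases. Whether a read of miR-99a-5p could also be counted at miR-100-5p, or the reverse, was not determined, so counts of this pair are uncertain to that extent.

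The members lie in 3 clusters, all on the plus strand of GRCm38. On chromosome 16, miR-99a-5p (77598940 to 77598961) lies 732 bases before let-7c-1 and 47339 bases before one of the genes of miR-125b (77646279 to 77646300), all in introns of the noncoding gene Mir99ahg. On chromosome 9, miR-100-5p (41531437 to 41531458) lies 5295 bases before let-7a-2 and 50503 bases before the other miR-125b gene (41581940 to 41581961), in introns of the noncoding gene 3110039I08Rik. The miR-100 locus also overlaps an exon of Gm48742 on the opposite strand. On chromosome 17, miR-99b-5p (17830194 to 17830215), let-7e and miR-125a-5p (17830817 to 17830840) lie within 623 bases of each other, start to start. miR-99b and let-7e are in introns of Spaca6, and miR-125a overlaps an annotated exon of this protein-coding gene. The mature miR-125b-5p is the same from both of its loci, as are let-7a-5p and let-7c-5p from the 2 loci of each, so these counts are sums over places in the genome. The table appears to count a read at each place it matches: miR-199a-3p, which has 2 loci, held between 1.998 and 2.003 counts per count of miR-199b-3p, which has the same sequence and 1 locus. This did not hold for every read. Of 22 libraries, the count was odd in 12 for miR-125b-5p, 9 for let-7a-5p and 8 for let-7c-5p.

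RS are the haploid germ cells that follow meiosis. They were prepared by enzymatic digestion and a BSA sedimentation gradient from testes of mice 75 to 85 days old. KO mice lack GRTH/DDX25, an RNA helicase of testicular germ and Leydig cells, and KI mice carry the human GRTH gene with R242H and lack the phosphorylated form of the protein. Spermatids of both mutants do not develop past the RS stage, and the males are sterile. The labels give 3 genotypes and 2 experimental batches, which make 4 groups. The batches are numbered here in the order of their codes in the labels, not as the study numbers them, with WT (n = 5) and KO (n = 5) in batch 1 and WT (n = 6) and KI (n = 6) in batch 2. They do not say whether each library came from a separate animal or a pool, so the p-values below measure the spread between libraries, which may be partly technical.

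Libraries of batch 1 held 870913 to 1081333 counts in WT and 559957 to 881323 in KO, and those of batch 2 held 2067322 to 3239357. Levels are given as CPM (counts relative to library size), and 3 counts correspond to between 0.926 and 5.36 CPM. The miRNAs of post-meiotic germ cells, the 5 listed products of miR-34b, miR-34c and miR-449a, summed to 195128 to 238575 CPM in WT and 169730 to 224962 CPM in KO of batch 1, and to 365267 to 420069 CPM in WT and 338324 to 386803 CPM in KI of batch 2. Of these 5, 2 were called lower in KO (miR-34b-5p and miR-34c-5p) and 1 in KI (miR-34c-5p), and 0 higher in either, while with library size as the only scaling none of these 3 calls was made (adjusted p of 0.121, 0.177 and 0.307). The 7 listed miRNAs of vascular and stromal cells also had counts and summed to between 773 and 2136 CPM in WT and 1946 and 4044 CPM in KO of batch 1, and between 1421 and 2361 CPM in WT and 2210 and 4952 CPM in KI of batch 2. In each mutant 4 of the 5 that could be tested were called higher and 0 lower. The one not called was miR-126a-3p in both. Its log2 fold change was 0.38 ± 0.29 in KO (SE, adjusted p = 0.327 by edgeR) and -0.039 ± 0.25 in KI (0.918). The 7 blood and immune miRNAs summed to 4046 to 5103 CPM in WT and 4337 to 6094 CPM in KO, and to 2940 to 3959 CPM in WT and 3642 to 5902 CPM in KI, with 2 of 5 tested called higher in KO and 4 of 5 in KI. Of these 7, miR-144-3p had 1 count in all. Of the 4 muscle miRNAs, 2 were absent from all 22 libraries (0 counts of miR-206-3p and of miR-133b-3p). The 4 summed to 8.10 to 29.5 CPM in WT and 11.5 to 147 CPM in KO (median 31.9), and the 1 that could be tested in KO, miR-1a-3p, was called higher (log2 fold change 1.79 ± 0.61, SE, adjusted p = 0.0417 by edgeR). In batch 2 they summed to 42.5 to 758 CPM in WT and 38.1 to 523 CPM in KI, with 0 of 2 tested called. The part that other cell types, or depth, had in the results below was not tested.

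All 5 members were detected in every library and passed the filter on low counts in every comparison. Their mature sequences are 22 or 24 bases long, so levels are compared as CPM scaled by TMM, with no correction for length. miR-125b-5p was the most abundant, with 6137 ± 1752 CPM (SD, n = 5) in WT of batch 1 and 9634 ± 1475 CPM (SD, n = 6) in WT of batch 2, and it ranked 12 of 1966 names by mean CPM. It made up between 82.6% and 87.9% of the counts of the 5 members. The rank and this share are of counts as deposited, in which miR-125b-5p is summed over its 2 loci. With its counts divided by its 2 loci, its mean was 3068 CPM in WT of batch 1, 4861 in KO, 4817 in WT of batch 2 and 5503 in KI. miR-125a-5p came next, with 878 ± 287 CPM (SD, n = 5) and 1067 ± 188 CPM (SD, n = 6) in the same groups. The lowest miR-125b-5p library of each group was above the highest miR-125a-5p library, also after this division, and miR-125a-5p was likewise above the next member.

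The 3 miRNAs with the miR-99 seed were rarer, with ranks of 134 for miR-99a-5p, 182 for miR-99b-5p and 192 for miR-100-5p. miR-99a-5p was the most abundant of them in every group by mean. In WT of batch 1 its libraries overlapped those of miR-100-5p, and it was the higher one in 4 of 5 libraries. In KO, WT of batch 2 and KI, miR-99a-5p did not overlap the next member, although in WT of batch 2 it did with CPM by library total. miR-99b-5p and miR-100-5p did not differ beyond their spread in WT of batch 1, where miR-100-5p was higher in 3 of 5 libraries. They overlapped in KO and in WT of batch 2 too, with miR-99b-5p higher in 4 of 5 and 6 of 6 libraries, and were separate in KI.

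**Figure D1:**
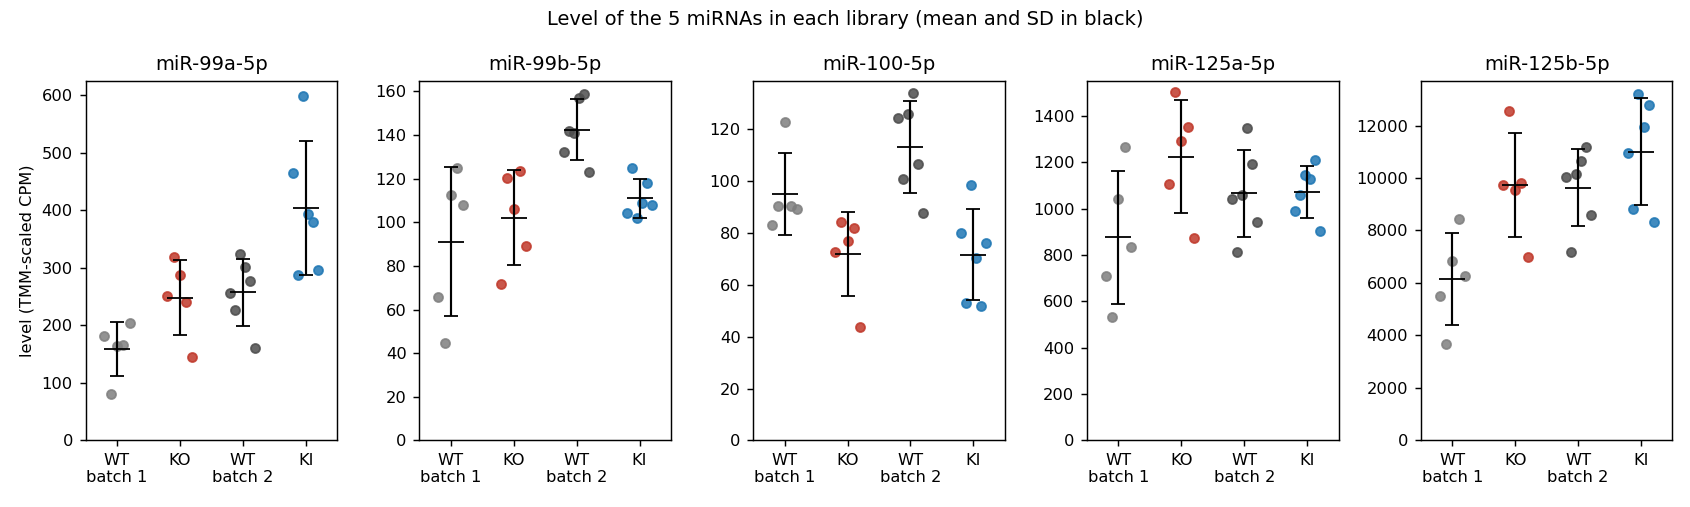
Level of each member in TMM-scaled CPM (linear y axis from 0, a scale of its own in each panel), 1 point per library, by group, with the mean and SD in black. miR-99a-5p has a higher mean in both mutants than in WT of the same batch (248 against 159 CPM in batch 1 and 403 against 258 CPM in batch 2), miR-100-5p has its lowest libraries in KO and KI, and KO replicate 5 is the lowest KO library for 4 of the 5 members.

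The mutants were each compared with WT of their own batch, which asks how the loss of GRTH, or of its phosphorylated form, goes with miRNA levels in RS. Called means an adjusted p under 0.1 in the quasi-likelihood test of edgeR, with Benjamini-Hochberg adjustment over all miRNAs tested. In KO, 3 of the 5 members were called, all higher (miR-99a-5p, miR-125a-5p and miR-125b-5p), where 41.9% of all 334 miRNAs tested were called. In KI, 3 of the 5 were called as well, miR-99a-5p higher and miR-99b-5p and miR-100-5p lower, against 38.0% of 387 miRNAs. The share of members called was thus not far from the background in either mutant. The median log2 fold change of the members was 0.51 in KO and 0.025 in KI, beside 0.015 and 0.0009 over all miRNAs tested. In no member were the 2 groups fully apart (0 of 5 in KO and 0 of 5 in KI), where 19.8% of all miRNAs tested were apart in KO and 12.4% in KI. In these bulk samples, fewer cells of a type and less RNA per cell cannot be told apart.

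miR-99a-5p, of the chromosome 16 cluster, was higher in both mutants. Its levels in WT of batch 1 were 182, 80.6, 164, 166 and 203 CPM in replicates 1 to 5. In KO they were 250.4, 318, 287, 241 and 144 CPM. In all, 4 of the 5 KO libraries were above every WT library, and KO replicate 5 lay within the WT range. The log2 fold change was 0.68 ± 0.24 (SE, n = 5 and 5), a 1.60-fold rise, with an adjusted p of 0.0493 by edgeR. Without KO replicate 2 or 3 it was no longer called, with adjusted p of 0.133 and 0.130. In batch 2 the lowest, median and highest levels were 161, 266 and 325 CPM in WT and 288, 386 and 599 CPM in KI. Here 4 of the 6 KI libraries were above all WT libraries and the other 2 lay within the WT range. KI differed from WT by a log2 fold change of 0.66 ± 0.20 (SE, n = 6 and 6), a 1.58-fold rise, with an adjusted p of 0.0214 by edgeR, and the call held with each library left out in turn.

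The cluster partner of miR-99a-5p, let-7c-5p, which a locus on chromosome 15 also makes, was called higher in KO (0.53 ± 0.22 on the log2 scale, SE, adjusted p = 0.0892 by edgeR). In KI the value was 0.29 ± 0.13 (SE) with an adjusted p of 0.103, which misses the threshold, and it was called by DESeq2 (adjusted p = 0.0943) and with library size as the only scaling (0.0498). The other arm of the miR-99a hairpin, miR-99a-3p, was near the floor in batch 1, with 0 to 3 counts per library, and of the comparisons of a mutant with its WT it could be tested only in KI, where it changed by 0.19 ± 0.25 (log2, SE, adjusted p = 0.565 by edgeR). Between the WT libraries of the batches its fitted log2 difference was 2.66 ± 0.43 (SE, adjusted p = 9.51e-05 by edgeR, higher in batch 2), beside 0.65 for miR-99a-5p.

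miR-125b-5p, the most abundant member, was called higher in KO and not in KI. Its levels in WT of batch 1 were 5507, 3656, 6832, 8422 and 6268 CPM in replicates 1 to 5. In KO they were 9733, 12550.5, 9536, 9818 and 6973 CPM. In all, 4 of the 5 KO libraries exceeded the highest WT library, and replicate 5 was again the lowest. This was a log2 fold change of 0.69 ± 0.20 (SE, n = 5 and 5), a 1.61-fold rise, with an adjusted p of 0.0175 by edgeR. This call held with each library left out in turn (adjusted p from 0.0113 to 0.0588). In batch 2 the lowest, median and highest levels were 7188, 10107 and 11173 CPM in WT and 8312, 11460 and 13217 CPM in KI. The groups overlapped widely, with 3 of 6 KI libraries above every WT library. Their log2 fold change was 0.21 ± 0.14 (SE, 95% interval -0.085 to 0.50), with an adjusted p of 0.271 by edgeR. Without KI replicate 6 the adjusted p was 0.0937.

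The 3p arms of miR-125b differ between its loci, unlike the 5p arm, and so show from which hairpin an arm came. miR-125b-2-3p, from chromosome 16, had 83 counts in WT and 107 in KO of batch 1, and 228 in WT and 379 in KI of batch 2. miR-125b-1-3p, from chromosome 9, had 20, 32, 42 and 76 counts in the same order. The share of miR-125b-2-3p in the sum of both was 80.6% (95% Wilson interval 71.9% to 87.1%) in WT of batch 1 and 76.98% (69.3% to 83.2%) in KO. In batch 2 it was 84.4% (79.6% to 88.3%) in WT and 83.3% (79.6% to 86.4%) in KI. The intervals are of counts summed over the libraries of a group and cover counting error only. They overlapped between each mutant and its WT, and a shift between the hairpins was not tested. miR-125b-2-3p itself was called higher in both mutants, by 0.74 ± 0.25 (log2, SE) in KO with an adjusted p of 0.0426 and by 0.66 ± 0.20 in KI with 0.0221, both by edgeR. Its libraries did not overlap in KO, from 6.80 to 22.6 CPM in WT (7 to 28 counts) and from 23.5 to 26.9 CPM in KO (17 to 29 counts). Among the members and the other arms of their hairpins it was the only one apart in KO, where 19.8% of all miRNAs tested were apart. In KI its libraries overlapped those of WT. miR-125b-1-3p did not pass the filter on low counts.

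miR-100-5p, which differs from miR-99a-5p by 1 base, was called lower in KI. In batch 2 its lowest, median and highest levels were 87.9, 115 and 134 CPM in WT and 51.7, 73.4 and 98.4 CPM in KI. In all, 5 of the 6 KI libraries were below every WT library. The fall was -0.64 ± 0.16 on the log2 scale (SE, n = 6 and 6), a level 0.640 times that of WT, with an adjusted p of 0.00766 by edgeR, and the call held with each library left out. In batch 1 the levels in replicates 1 to 5 were 83.0, 90.3, 123, 90.2 and 89.3 CPM in WT. In KO they were 72.7, 84.1, 77.1, 81.8 and 43.8 CPM. With TMM scaling, 4 of the 5 KO libraries were below all WT libraries. By library total the KO libraries were at 81.2, 108, 103, 102 and 49.9 CPM, with the lowest WT library at 94.2 CPM. The log2 fold change of -0.37 ± 0.18 (SE, 95% interval -0.76 to 0.025) had an adjusted p of 0.132 by edgeR and was not called. With library size as the only scaling it was -0.25 (adjusted p = 0.360 by edgeR). Its partner let-7a-5p, made also from chromosome 13, was called lower by a small amount in both mutants, by -0.14 ± 0.055 in KO (log2, SE, adjusted p = 0.0731) and -0.15 ± 0.044 in KI (0.0220). With library size as the only scaling these became -0.030 (adjusted p = 0.683) and -0.061 (0.226), neither called, and DESeq2 did not call the one in KO (0.155).

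**Figure D2:**
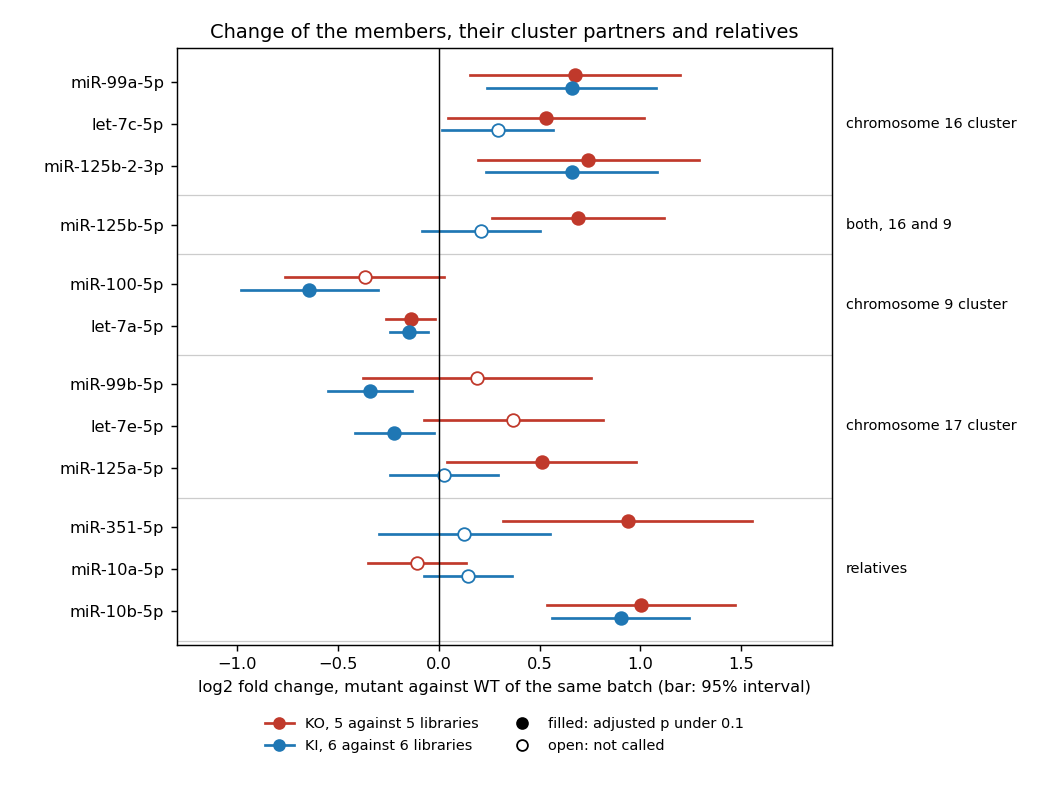
Log2 fold change (x axis) of each member, its cluster partners and its relatives (rows), KO in red and KI in blue, each against WT of the same batch, with 95% intervals. Filled points have an adjusted p under 0.1. miR-99a-5p lies at 0.68 and 0.66, and miR-100-5p at -0.37 and -0.64.

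Within the group that shares the miR-99 seed, the mutant libraries held relatively more miR-99a-5p. It gave 37.4% to 55.0% of the counts of the 3 miRNAs in WT of batch 1 and 52.0% to 63.5% in KO, with some overlap. In batch 2 it gave 43.3% to 54.9% in WT and 61.7% to 74.9% in KI, with none. miR-100-5p gave 22.3% to 41.9% in WT and 15.8% to 18.4% in KO, and 19.6% to 24.2% in WT and 9.40% to 15.9% in KI.

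Counts of miR-99a-5p per count of miR-100-5p, a ratio that does not depend on scaling, were 2.20, 0.892, 1.34, 1.84 and 2.28 in WT of batch 1 and 3.44, 3.78, 3.72, 2.95 and 3.29 in KO. The lowest, median and highest were 1.83, 2.25 and 2.60 in WT of batch 2 and 3.88, 5.70 and 7.36 in KI. Every mutant library was above every WT library of either batch. This pair was singled out after its values were seen, so the ratio is given as a description with no test.

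**Figure D3:**
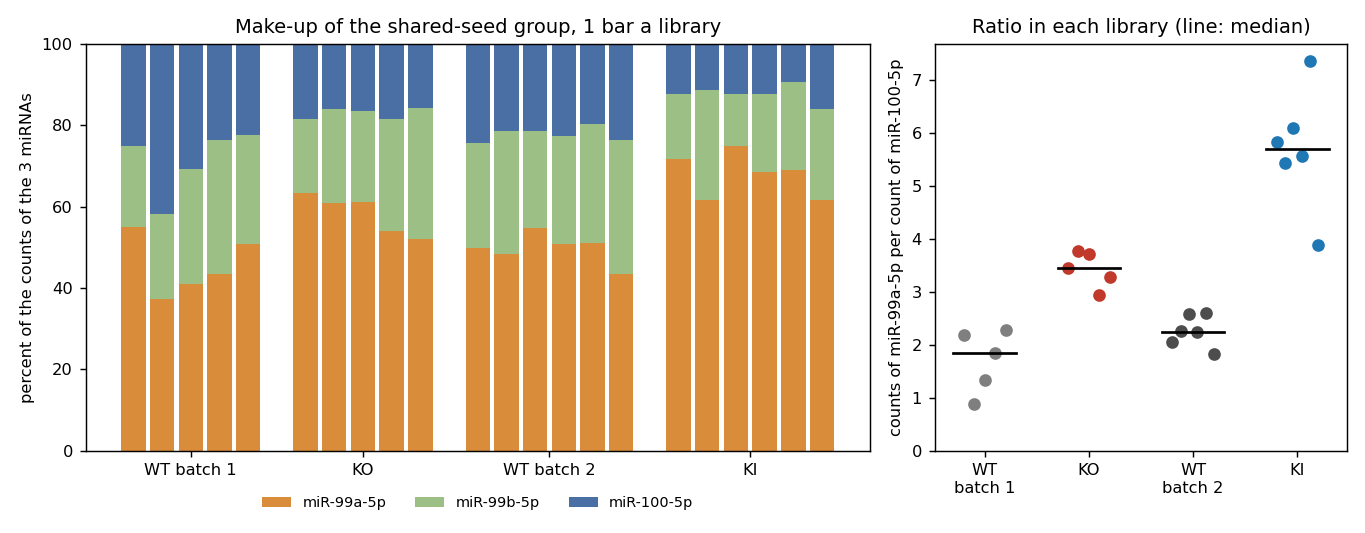
Left, percent of the summed counts of miR-99a-5p, miR-99b-5p and miR-100-5p that each gave (y axis), 1 bar per library by group. Right, counts of miR-99a-5p per count of miR-100-5p, 1 point per library, with the median as a line, which is 1.84 in WT of batch 1, 3.44 in KO, 2.25 in WT of batch 2 and 5.70 in KI.

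Of the chromosome 17 members, miR-99b-5p was called in KI and miR-125a-5p in KO. miR-99b-5p had 65.8, 44.7, 113, 124.9 and 108 CPM in WT of batch 1 and 71.5, 120.5, 106, 123 and 89.1 CPM in KO. The KO libraries all lay within the WT range, and the log2 fold change was 0.19 ± 0.26 (SE, 95% interval -0.38 to 0.76, adjusted p = 0.597 by edgeR). In batch 2 its lowest, median and highest levels were 123, 141 and 159 CPM in WT and 102, 108 and 125.04 CPM in KI. With TMM scaling, 5 of the 6 KI libraries were below every WT library. By library total the KI libraries were at 92.9, 117, 92.0, 105, 110 and 93.8 CPM, with the lowest WT library at 102 CPM. The log2 fold change was -0.34 ± 0.098 (SE, n = 6 and 6), with an adjusted p of 0.0182 by edgeR. With library size as the only scaling it was -0.26 (adjusted p = 0.0716 by edgeR), still called. In a fit of all 4 groups together the adjusted p was 0.108.

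miR-125a-5p, from the same cluster, had 712, 531, 1043, 1268 and 835 CPM in WT of batch 1 and 1105, 1503, 1294, 1353 and 874 CPM in KO. In all, 3 of the 5 KO libraries were above the highest WT library. KO was higher by 0.51 ± 0.22 on the log2 scale (SE, n = 5 and 5), a 1.42-fold rise, with an adjusted p of 0.0892 by edgeR. The call was lost in 6 of 10 fits that left out 1 library, namely WT replicate 1, 2 or 5 or KO replicate 2, 3 or 4, with adjusted p of up to 0.200. In batch 2 the lowest, median and highest levels were 814, 1053 and 1349.8 CPM in WT and 906, 1095 and 1211 CPM in KI. All KI libraries lay within the WT range, with a log2 fold change of 0.025 ± 0.13 (SE, 95% interval -0.24 to 0.29, adjusted p = 0.899). let-7e-5p, between them, changed by 0.37 ± 0.20 (log2, SE) in KO with an adjusted p of 0.178 by edgeR. In KI it was called lower, by -0.22 ± 0.092 (adjusted p = 0.0833), and with library size as the only scaling this was -0.14 (0.279). The 3p arms of miR-100 and miR-125a had at most 3 counts in a library.

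**Figure D4:**
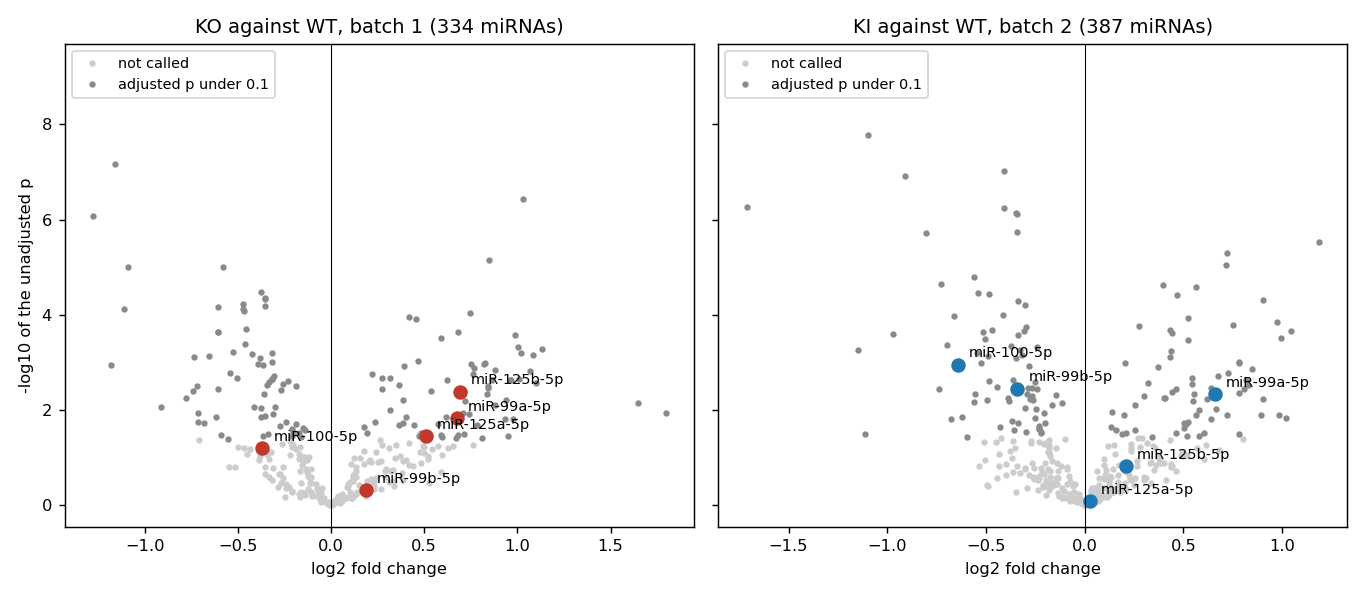
Log2 fold change (x axis) against -log10 of the unadjusted p (y axis) of all miRNAs tested, 334 for KO and 387 for KI, with the members labelled (red for KO, blue for KI). Called miRNAs are dark grey and the others light grey. The highest member is miR-125b-5p in KO (log2 fold change 0.69) and miR-100-5p in KI (-0.64).

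The values of KO and KI appear unlike for some members, so the KO effect minus the KI effect was itself tested, with all 22 libraries fitted together. None of the 5 members was called (0.0% of 421 miRNAs tested were called by edgeR, 67 had an unadjusted p under 0.05, and DESeq2 also called 0). The differences were 0.52 ± 0.26 (log2, SE) for miR-99b-5p, 0.47 ± 0.24 for miR-125a-5p, 0.47 ± 0.24 for miR-125b-5p, 0.26 ± 0.24 for miR-100-5p and -0.0018 ± 0.34 for miR-99a-5p. Their adjusted p lay between 0.336 and 0.996. The 95% interval of the difference ran from -0.014 to 1.05 for miR-99b-5p and from -0.70 to 0.69 for miR-99a-5p, so these data show neither that KO and KI differ in these miRNAs nor that they act alike.

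Ratios of counts within 1 library do not depend on how libraries are scaled. They were compared between each mutant and its WT for chosen pairs within a cluster and for the arms of a hairpin. Ratios with let-7a-5p, and that of let-7c-5p to miR-125b-5p, were not among them. The chosen ratios were tested with two-sided exact permutation tests on mean log2 ratios, 14 comparisons in all with Benjamini-Hochberg adjustment. Of these, 6 were called at an adjusted p under 0.05, 1 of them in KO. The ratio of miR-100-5p to miR-125b-5p fell in both mutants. It ranged from 0.0108 to 0.0248 in WT of batch 1 and from 0.00638 to 0.00840 in KO, with the mean log2 ratio lower by -1.11 (exact permutation p = 0.00794, the smallest possible with 5 against 5, adjusted 0.0303). In batch 2 it ranged from 0.00955 to 0.0141 in WT and from 0.00407 to 0.00921 in KI, lower by -0.87 (exact permutation p = 0.00216, the smallest possible with 6 against 6, adjusted 0.0303). In both cases all mutant libraries were below all WT libraries. The miR-125b-5p count is a sum over chromosomes 9 and 16, so this ratio is not one of a single transcript.

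The other 4 called ratios were all in KI. miR-99a-5p rose against miR-125b-5p by 0.45 in mean log2 ratio (exact permutation p = 0.0108, adjusted 0.0303) and against let-7c-5p by 0.37 (p = 0.0108, adjusted 0.0303). miR-99b-5p fell against miR-125a-5p by -0.38 (exact permutation p = 0.00649, adjusted 0.0303), with ratios from 0.116 to 0.175 in WT and 0.0893 to 0.119 in KI. miR-99a-5p also rose against its own 3p arm by 0.51 (exact permutation p = 0.0173, adjusted 0.0404), from 24.2 to 36.1 counts per count of the 3p arm in WT to 29.1 to 60.5 in KI. This 3p arm had only 12 to 30 counts per library in WT and 10 to 36 in KI. The call on the arm ratio was lost in 10 of 22 tests that each left out 1 library (adjusted p of up to 0.0808 by exact permutation). In KO the matching cluster ratios changed by -0.035 (miR-99a-5p to miR-125b-5p, adjusted p = 0.841 by exact permutation), 0.13 (miR-99a-5p to let-7c-5p, 0.537) and -0.29 (miR-99b-5p to miR-125a-5p, 0.167). Whether the KO and KI changes in ratio differ was not tested. The ratio of miR-99b-5p to let-7e-5p changed by -0.11 in both mutants (adjusted p = 0.709 in KO and 0.455 in KI by exact permutation), and that of miR-125a-5p to let-7e-5p by 0.18 in KO and 0.27 in KI (0.358 and 0.0736). For miR-99b, the ratio of the 5p to the 3p arm in KI changed by -0.19 (adjusted p = 0.537 by exact permutation). The 3p arms of miR-99a and miR-99b were too rare for such a ratio in KO. Of the 6 called ratios, 0 stayed under 0.05 without WT replicate 1, 5 or 6 or KI replicate 1 or 3 of batch 2. Without WT replicate 4 of batch 2, 3 stayed. The calls thus depended on single libraries, and p-values of so few libraries come in coarse steps. The adjustment runs over all 14, so a library of batch 2 also moves the adjusted p of the KO ratio. All 6 kept their direction and an adjusted p of at most 0.0808 with any library left out.

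**Figure D5:**
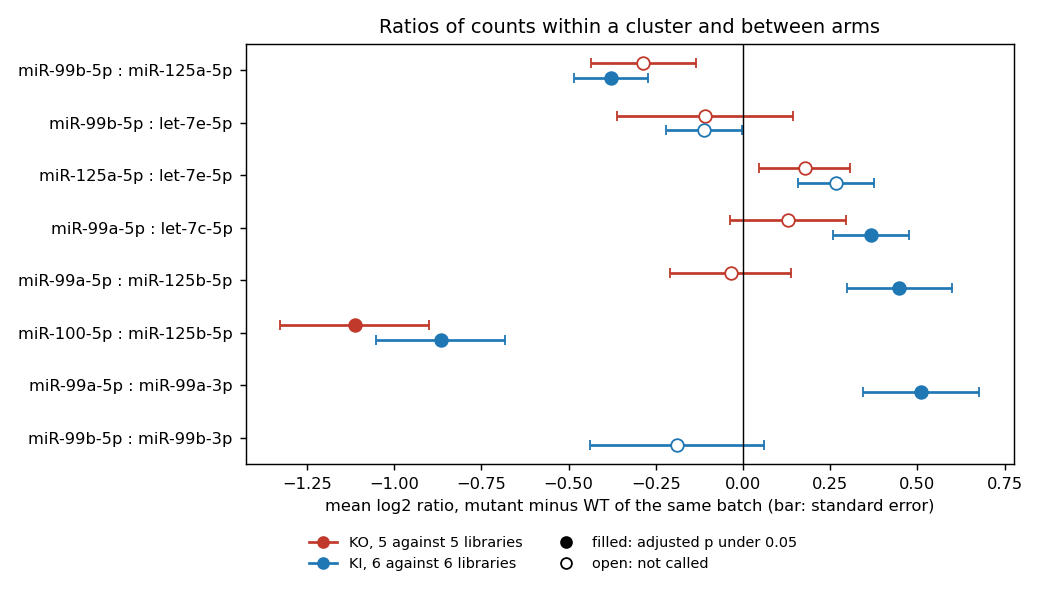
Difference in mean log2 ratio of counts, mutant minus WT of the same batch (x axis), for each pair of miRNAs (rows), KO in red and KI in blue, with the standard error as bars. Filled points have an adjusted p under 0.05 by the exact permutation test. The ratio of miR-100-5p to miR-125b-5p lies farthest from 0, at -1.11 in KO and -0.87 in KI.

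The same members also differed between the WT libraries of the 2 batches, which differ in depth and batch label but not in genotype. miR-99a-5p (0.65 ± 0.21 on the log2 scale, SE), miR-125b-5p (0.61 ± 0.16) and miR-99b-5p (0.59 ± 0.19) were called higher in WT of batch 2 by edgeR, with adjusted p of 0.0179, 0.00393 and 0.0178. miR-125a-5p (0.24 ± 0.18) and miR-100-5p (0.20 ± 0.15) were not called. These 3 of 5 stand beside 56.7% of 383 miRNAs called, and 0 of 5 members were fully apart, where 37.9% of all tested were. With library size as the only scaling, which moved the median of all miRNAs tested from -0.010 to -0.34 (log2), 0 of the 5 were called. Because of these differences, levels of KO and KI libraries were not compared directly. In the mutant comparisons the same change of scaling moved the median from 0.015 to 0.13 in KO and from 0.0009 to 0.088 in KI. The split of all calls went from 71 higher and 69 lower to 101 and 44 in KO, from 70 and 77 to 96 and 53 in KI, and from 103 and 114 to 47 and 193 in WT between batches. The same number of members, 3, was called in each mutant under either scaling. The germ cell and muscle sums given above also differed between the WT libraries of the batches, and their part in these differences was not tested.

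Relatives outside the clusters were examined for comparison. miR-351-5p, which has the miR-125 seed, was called higher in KO (0.94 ± 0.28 on the log2 scale, SE, adjusted p = 0.0249 by edgeR) and changed by 0.13 ± 0.20 in KI (0.644). miR-10a-5p and miR-10b-5p have a seed close to that of miR-99 but not the same, as seen in their sequences, in which U12A from miR-10a-5p to miR-10b-5p is the one difference.
miR-10a-5p: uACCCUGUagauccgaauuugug
miR-10b-5p: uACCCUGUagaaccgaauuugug
miR-10b-5p was called higher in both mutants, by 1.002 ± 0.21 in KO (log2, SE, adjusted p = 0.00627 by edgeR) and 0.90 ± 0.16 in KI (0.000886). miR-10a-5p was not called in either (-0.11 ± 0.11 in KO and 0.15 ± 0.10 in KI). Of the 6 let-7 family members outside the clusters (let-7b, let-7d, let-7f, let-7g, let-7i and miR-98), 0 were called in KO and 1 in KI, let-7i-5p, higher by 0.14 ± 0.053 (adjusted p = 0.0700). With library size as the only scaling let-7i-5p was called in KO as well (0.22, adjusted p = 0.0607). Their median log2 fold change was 0.11 in KO and -0.014 in KI.

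The members differed in which miRNAs they followed from library to library within groups, measured by the Pearson correlation of deviations from the group means of log2(CPM + 1) over the 22 libraries and 421 miRNAs. These are descriptions, and the values share the libraries and their scaling. miR-99a-5p was most like miR-10b-5p (r = 0.92), miR-199a-3p (0.91) and miR-199b-3p (0.91), of which the last pair have identical mature sequences and miR-199a-3p is on the vascular and stromal list. miR-199a-3p was itself called higher in KO (0.96 ± 0.25 on the log2 scale, SE, adjusted p = 0.0130 by edgeR) and in KI (0.78 ± 0.19, 0.00724). miR-125b-5p was most like its cluster partner let-7c-5p (r = 0.93), miR-125a-5p (0.91) and miR-199a-5p (0.90), the last also on the vascular and stromal list. miR-125a-5p was most like let-7b-5p (0.92), miR-125b-5p (0.91) and let-7c-5p (0.86), and miR-99b-5p was most like its neighbour miR-125a-5p (0.80), then miR-202-3p (0.80) and let-7b-5p (0.79). miR-100-5p stood apart, with lower values for its top 3, let-7f-5p (0.72), miR-429-3p (0.71) and miR-221-3p (0.71), and r = 0.64 with miR-99a-5p. With CPM by library total, 1 of the 3 named for miR-100-5p remained in its top 3, and 2 or 3 did for the other members. Not every let-7 partner was followed. For let-7a-5p, r was -0.36 with miR-100-5p and -0.16 with miR-125b-5p (-0.079 and 0.36 with CPM by library total). For let-7c-5p it was 0.86 with miR-99a-5p, and for let-7e-5p 0.54 with miR-99b-5p and 0.78 with miR-125a-5p.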

How the data were processed

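Small RNA of 22 RS samples was analysed from the deposited counts, unnormalized read numbers for 1966 mature miRNA names. The authors removed adapters with cutadapt 3.4, aligned reads to GRCm38 with Bowtie2 2.4.2 in a local mode reporting up to 100 alignments per read, and counted them by strand with featureCounts (Subread 2.0.1) without removing duplicates. No option for reads with several alignments is named in the file header. Names with several loci appear to be counted at each, but the miR-125b-5p count was odd in 12 of 22 libraries, so not every such read was counted at both loci. Each sample was used, and 0 columns were left unused. In R 4.3.3, edgeR 4.0.16 was run with TMM scaling and filterByExpr, KO and KI each against WT of the same batch, and DESeq2 1.42.0 as an alternative. The threshold of 0.1 is the study's. Fits and permutation tests were tested on simulated data. No replicate pair agreed within sampling noise (chi-square per degree of freedom of at least 7.28 over 50 pairs). Ratios used counts with 0.5 added, and arm ratios required a mean of 5 counts of the 3p arm in both groups. Python 3.11.15 and scipy 1.17.1 were used. Annotation was GENCODE vM21 of the same build. Floors and the Wilson intervals of the arm shares cover counting error only. Intervals of the fold changes came from the edgeR fits and include the spread between libraries. The named miRNAs were the members, the other arms of their hairpins, their let-7 partners, the rest of the let-7 family, relatives by seed or family, and the 3 miRNAs most like each member. Members, lists and rules were chosen with earlier results of these data known. The 3p arms of the let-7 partners were too rare to test (0 of 3 passed the filter).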

Additional observations from a re-analysis of the deposited data

Results flagged for a closer look

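Of the 20 sets of libraries (5 members in 4 groups), 3 had 1 library far from the rest, measured as the gap to its nearest neighbour divided by the range of the set on the scale of log2(CPM + 1). Chance flags about 1 in 20 such sets, which is 1 here. In WT of batch 1, replicate 2 was low for miR-99a-5p, at 80.6 CPM (gap 0.769 of the range). In the same group, replicate 3 was high for miR-100-5p, at 123 CPM (gap 0.786 of the range). In KO, replicate 5 was low for miR-100-5p, at 43.8 CPM (gap 0.775 of the range). Without WT replicate 2 the number of members called in KO was 2, and without WT replicate 3 or KO replicate 5 it was 3.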

How the results depend on the processing

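In KO, 76 of 85 alternative values of the members kept their direction and side of the threshold, 9 lost the call and 0 reversed. In KI it was 89 of 95, in WT between batches 81 of 90, and in the difference of the effects 127 of 140. Leaving out 1 library gave 1 to 3 members called in KO, with 1 without KO replicate 2 or 3, 3 to 4 in KI and 3 to 4 in WT between batches. The log2 fold change of miR-125a-5p in KI then ran from -0.034 to 0.13, and the difference of effects for miR-99a-5p from -0.16 to 0.15. The calls over all miRNAs for that difference ran from 0 to 26, with 26 without KI replicate 2 and 1 without WT replicate 1 of batch 2. For ratios in KO, miR-99a-5p to miR-125b-5p ran from -0.13 to 0.056 and miR-99b-5p to let-7e-5p from -0.24 to 0.031, and the number of ratios called ran from 0 to 7. In a fit of all 4 groups 2 members were called in KI, with miR-99b-5p at an adjusted p of 0.108. With library size as the only scaling, 0 members were called in WT between batches, where miR-100-5p reversed to -0.13 and miR-125a-5p to -0.10, and the difference for miR-99a-5p reversed to 0.054. Same-numbered libraries of a batch did not deviate together throughout (correlations from -0.21 to 0.31 in batch 1 and from -0.12 to 0.56 in batch 2), so the numbers were not taken to pair them. With the replicate number as a block, 5 members were called in WT between batches, 25 miRNAs but no member in the difference of effects, where miR-99a-5p was 0.018, and miR-125b-5p in KI (adjusted p = 0.0114). A sign-flip test of the ratios with this pairing called 0, since its smallest p is 0.0625 for 5 pairs and 0.03125 for 6. The causes were not tested. Levels by library total stayed within 1 SD in 14 of 20 cases. The 3p arms of miR-100 and miR-125a were too rare to be tested in KO or KI, and the part of depth in this was not tested.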
